A study of Mus musculus with 18 samples.

Results

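The genes described here encode the subunits of the 5 oxidative phosphorylation complexes and carry symbols that start with Ndufa, Ndufb, Ndufc, Ndufs, Ndufv, Sdh (a to d), Uqcr, Cox4 to Cox8 or Atp5. This choice by symbol gave 88 of the 19630 genes in the deposited table: 41 of complex I, 4 of complex II, 8 of complex III, 18 of complex IV and 17 of ATP synthase. The table holds 18 libraries of mouse mRNA in 6 groups of 3. Of these, 2 groups were embryonic fibroblasts used as feeders, labelled control and p53-defective. Embryonic stem (ES) cells were co-cultured on control feeders in the third group and on p53-defective feeders in the fourth, and both co-cultures are labelled as holding ES cells together with fibroblasts. The fifth group, labelled as ES cells only, had been on control feeders that were then removed. In the last, the feeders were replaced by ATN161, a peptide that inhibits integrin α5β1. The design asks what a p53 defect in the feeders changes in the culture, and whether loss of feeders or of integrin signalling changes the ES cells. How p53 was made defective, the ATN161 dose, the time without feeders and the cell lines are not given in the sources used here.

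Oxidative phosphorylation takes place at the inner mitochondrial membrane. Complex I (NADH dehydrogenase) and complex II (succinate dehydrogenase) pass electrons to ubiquinone, complex III hands them to cytochrome c and complex IV gives them to oxygen, and ATP synthase uses the proton gradient that complexes I, III and IV build to make ATP. Most subunits are encoded in the nucleus, and the mitochondrial genome encodes a small core set, which is not analysed here. ES cells are known for a high rate of glycolysis beside respiration, and a few complex IV subunits exist as alternative isoforms that are known from muscle or testis.

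Promoter sequence is shown for 3 widely expressed members and for the 2 isoforms with the largest excess of RNA in ES cells with feeders removed over control feeders. RefSeq promoter entries of GRCm38.p6 were matched by Entrez gene number to 71 of the 88 members. Each sequence below is the 150 bases before the annotated start, 5′ to 3′ on the strand of the gene. Capitals mark a match to GCGCATGC, part of the palindromic core bound by NRF1 (GCATGCGC on the other strand, with which it can overlap), or to CCGGAAG, a core bound by ETS factors such as GABP, which on the other strand reads CTTCCGG. Atp5g2 (a c-ring subunit of ATP synthase) is at chr15:102671048-102671197, Cox6a1 (the general isoform of a complex IV subunit) at chr5:115348959-115349108 and Atp5e (the epsilon subunit of the ATP synthase stalk) at chr2:174464102-174464251, all on the minus strand. Cox7a1 (an isoform known from heart and skeletal muscle) is at chr7:30184021-30184170 on the plus strand, and Cox7b2 (an isoform known from testis) at chr5:71548206-71548355 on the minus strand.
Atp5g2: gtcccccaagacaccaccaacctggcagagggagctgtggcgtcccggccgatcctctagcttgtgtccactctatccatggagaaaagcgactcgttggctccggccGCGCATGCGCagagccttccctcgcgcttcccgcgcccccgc
Cox6a1: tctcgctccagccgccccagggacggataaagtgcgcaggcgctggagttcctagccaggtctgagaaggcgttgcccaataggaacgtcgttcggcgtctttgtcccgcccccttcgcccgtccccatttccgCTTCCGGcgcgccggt
Atp5e: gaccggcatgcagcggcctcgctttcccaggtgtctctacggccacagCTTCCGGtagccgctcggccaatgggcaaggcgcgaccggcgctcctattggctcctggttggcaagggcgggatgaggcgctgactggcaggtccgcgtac
Cox7a1: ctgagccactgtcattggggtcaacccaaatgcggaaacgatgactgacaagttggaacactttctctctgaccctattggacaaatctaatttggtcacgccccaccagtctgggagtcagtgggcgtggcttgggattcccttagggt
Cox7b2: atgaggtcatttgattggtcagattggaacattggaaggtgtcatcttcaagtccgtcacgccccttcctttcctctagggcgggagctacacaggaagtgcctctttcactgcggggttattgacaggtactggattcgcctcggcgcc

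The NRF1 core stood in the 250 bases before the start of 8 of 71 members (11.3%; Atp5g2, Atp5k, Atp5l, Cox6a1, Ndufa6, Ndufa8, Ndufa11 and Sdhb) and of 2.56% of the 27025 genes with an entry, on either strand. The ETS core stood there in 12 members (16.9%) and in 7.83% of all genes, and TCAAGGTCA, a core bound by estrogen-related receptors, in 1 member (Atp5g3, 1.41%) and in 0.422% of all genes. The NRF1 core of Cox6a1 lies farther upstream than the 150 bases shown, and the motif classes share no matched base in the printed sequences. A match is a description of letters and no test of binding.

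Library totals were 15.12 to 19.83 M (mega) expected counts, so that 1 count was at most 0.0661 counts per M (CPM, scaled by TMM). Of the 88 members, 84 passed the filter on low counts (39 of complex I, 4 of II, 8 of III, 16 of IV and 17 of ATP synthase). The other 4 were Ndufb4b, Ndufs6b, Cox8b and Cox8c, the first pair being close copies of Ndufb4 and Ndufs6 whose reads cannot be assigned with certainty. Trp53, the gene of p53, was at 112 to 124 CPM in control feeders and at 244 to 326 CPM in feeders labelled p53-defective, and it was at 289 to 300 CPM in the co-culture on control feeders and at 141 to 160 CPM in the other co-culture. Its level thus moved in opposite directions under the same label, so the groups are named by their labels only. Summed over 12 ES cell markers, 3840 to 3990 CPM were measured in the co-culture on control feeders but 336 to 475 CPM in the co-culture labelled p53-defective, against 5100 to 5270 CPM with feeders removed and 6270 to 6530 CPM with ATN161. The 12 fibroblast markers summed to 29700 to 36600 CPM in control feeders and to 4270 to 6390 CPM in feeders labelled p53-defective, in which 8 mesothelial markers summed to 1430 to 2190 CPM against 51.8 to 59.5 CPM in control feeders. With feeders removed the fibroblast markers still summed to 3270 to 3780 CPM, and with ATN161 to 721 to 793 CPM. In such bulk RNA, fewer cells of a type and less RNA per cell cannot be told apart, and the part of cell makeup in the results below was not tested.

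Levels were compared between genes and groups as deposited TPM, which divides by transcript length. The 88 members together took 3.02% of TPM in control feeders (2.96 to 3.06%), 3.3% in feeders labelled p53-defective (3.16 to 3.4%), 4.25% in the co-culture on control feeders (4.19 to 4.31%), 4.49% in the co-culture labelled p53-defective (4.29 to 4.68%), 4.36% with feeders removed (4.32 to 4.41%) and 4.78% with ATN161 (4.75 to 4.83%). Both feeder groups lay below all 4 groups with ES cells, and the ATN161 libraries lay above all others. Among the ES groups, the co-culture labelled p53-defective overlapped with the co-culture on control feeders and with the group without feeders. Complexes I and II departed from this order. Complex I summed to 13600, 14200 and 12800 TPM in the co-culture labelled p53-defective, which overlapped with the 12900, 12900 and 13200 TPM of ATN161, and to 11300, 11400 and 11700 TPM with feeders removed, below the 12000, 12100 and 12300 TPM of the co-culture on control feeders. The 4 genes of complex II summed to 613, 608 and 575 TPM in the co-culture labelled p53-defective, below the 749, 741 and 743 TPM of the co-culture on control feeders and narrowly below the 626, 614 and 646 TPM of control feeders. In ES cells with feeders removed, Cox7c (a small structural subunit of complex IV) had the highest TPM of the members, 2680 ± 160 (SD, n = 3), with an effective length of only 153 nucleotides (nt) behind it, followed by Atp5b (the catalytic beta subunit of ATP synthase) at 1910 ± 27.0. Ndufs1 (the largest core subunit of complex I, with iron-sulfur clusters) was at 98.9 TPM there.

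**Figure D1:**
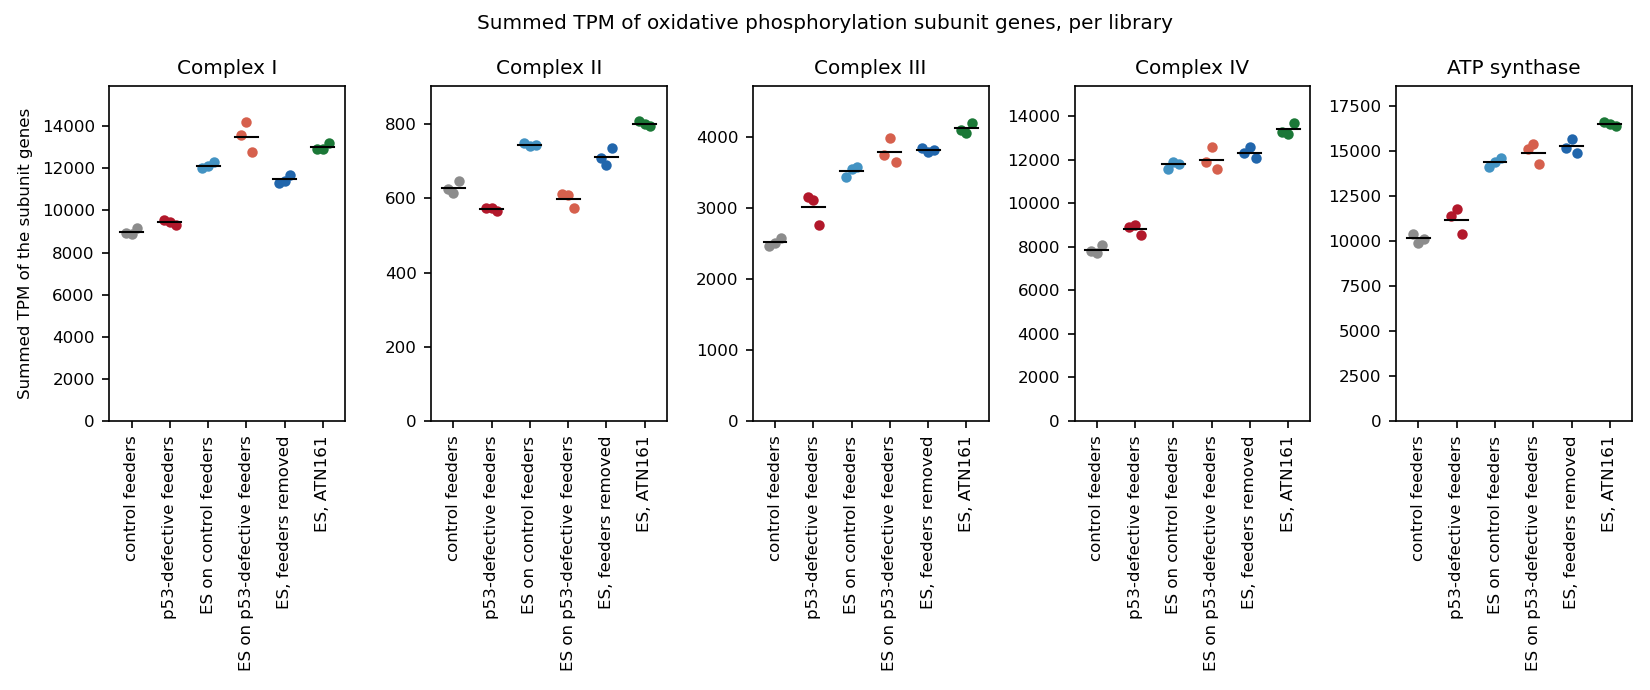
Summed deposited TPM of the subunit genes of each complex (vertical axis, from 0) in the 6 groups; points are the 3 libraries of a group and lines their mean. Feeders are lowest and ATN161 highest for complexes III and IV and ATP synthase, while complex II in the co-culture labelled p53-defective (mean 598 TPM) lies near the feeders and not near the co-culture on control feeders (744 TPM).

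One property of the members touches each comparison below. The effective transcript length implied by the deposited counts and FPKM was under 600 nt for 58 of the 84 members tested, but for only 725 of the 15389 genes tested. Short transcripts of all kinds took 5.02 to 5.14% of the counts in control feeders, 5.78 to 5.98% in feeders labelled p53-defective, 7.28 to 7.43% in the co-culture on control feeders, 6.72 to 7.53% with feeders removed, 8.36 to 8.84% with ATN161 and 9.67 to 12.5% in the co-culture labelled p53-defective. The fold changes of short genes moved the same way, for instance to a median log2 of 0.65 under 600 nt and of -0.43 over 2500 nt between the co-cultures. RNA quality and library preparation are not recorded per library, and their part in this was not tested. Counts over all members, and those by complex where printed for a whole comparison, are therefore also given with the trend over length taken out as an offset of the fit.

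**Figure D2:**
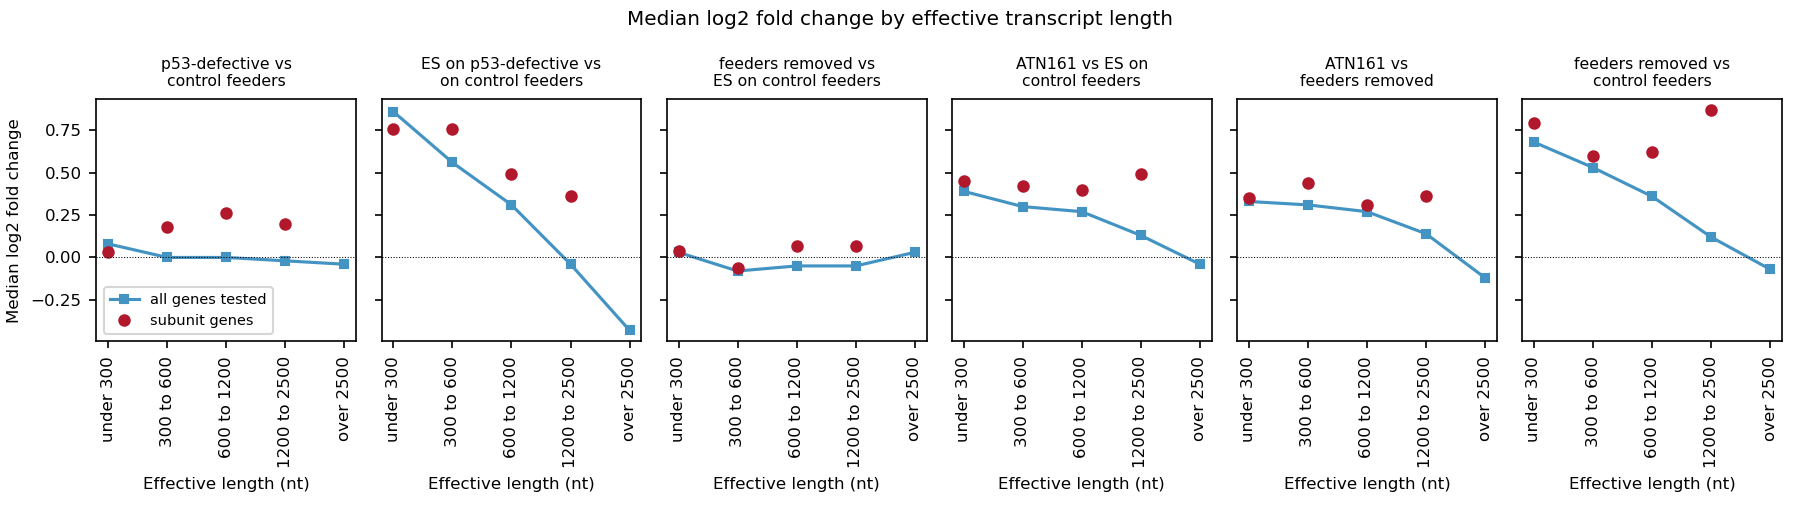
Median log2 fold change (vertical axis) by effective transcript length in nucleotides (horizontal axis) for all genes tested (squares) and for the subunit genes (circles) in 6 comparisons; the single member over 2500 nt is not drawn. Between the co-cultures all genes fall from 0.86 in the shortest to -0.43 in the longest class, and members from 1200 to 2500 nt lie above all genes of that length in each panel.

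ES cells without feeders had more subunit RNA than the control feeders. With feeders removed, 64 of the 84 members were higher and 5 lower than in control feeders (edgeR quasi-likelihood test, Benjamini-Hochberg adjusted p below 0.05), where 45.1% of all genes tested were higher and 40.8% lower. The median log2 fold change was 0.7 for the members and 0.09 for all genes. All 5 complexes took part, with 28 of 39 genes of complex I, 3 of 4 of II, 7 of 8 of III, 12 of 16 of IV and 14 of 17 of ATP synthase higher. Of the 11 members of 1200 to 2500 nt, 10 were higher, against 46% of all genes of that length. With the length offset 45 members were higher (42.3% of all genes) and 24 lower (44.8%), with a median of 0.18, and the higher and lower genes were 20 and 12 for complex I, 2 and 2 for II, 6 and 1 for III, 9 and 5 for IV and 8 and 4 for ATP synthase. Nothing in the labels tells separate cultures from repeat libraries, and the p-values therefore refer to library spread that may be technical.

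Uqcrc1 and Atp5a1 had the largest rises within complex III and ATP synthase, and Cox5a of complex IV differed by a similar amount. Cox5a, which flanks the catalytic core of complex IV, was at 247, 233 and 270 CPM with feeders removed and at 93.6, 88.6 and 84.4 CPM in control feeders. Uqcrc1, a core protein of complex III, was at 341, 335 and 346 CPM against 126, 133 and 133 CPM. Atp5a1, the alpha subunit of ATP synthase, was at 1320, 1290 and 1400 CPM against 536, 525 and 557 CPM. The groups did not overlap for these 3 genes, whose log2 fold changes were 1.49 ± 0.09 (SE; adjusted p = 2.14e-13, edgeR), 1.38 ± 0.07 (adjusted p = 2.79e-14) and 1.31 ± 0.07 (adjusted p = 4.02e-14). Cox7c was 2.53-fold higher (adjusted p = 6.63e-12). The lower members included Ndufv3, an accessory subunit of the complex I flavoprotein module, at 39.7, 37.6 and 41 CPM against 49.6, 49.3 and 60.2 CPM (log2 -0.43 ± 0.09, adjusted p = 0.000191). Sdhc, a membrane anchor of complex II, was lower by a small margin (log2 -0.24, adjusted p = 0.0136, edgeR), and Atp5e and Cox6a2, described below, were lower too.

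Replacing feeders with ATN161 went with higher RNA of nearly the whole set. Against the co-culture on control feeders, 73 of 84 members were higher and 1 (Atp5e) lower, where 33.6% of all genes were higher and 28% lower, and the medians were 0.43 and 0.07. Against ES cells with feeders removed, in which fibroblast markers were higher than with ATN161 as given above, 72 were higher and 1 (Atp5e) lower, where 28.6% and 26.8% of all genes were, with medians of 0.36 and 0.03. These 2 comparisons share the ATN161 libraries. All 8 genes of complex III and all 4 of complex II were higher than in the co-culture, as were 32 of 39 of complex I, 13 of 16 of complex IV and 16 of 17 of ATP synthase. The rise was small and even: over complex I the log2 fold changes had an SD of 0.14, from -0.04 (Ndufv3, not called) to 0.7 (Ndufs1), and 0 of the 73 members rose 2-fold.

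The difference was smaller with length taken out. All genes under 600 nt had a median of 0.33 and 51.4% of them were higher, against 0.44 and 47 of 58 for members of that length. Longer members rose as well: 14 of 14 from 600 to 1200 nt were higher (44.9% of all genes there) and 11 of 11 from 1200 to 2500 nt (38.4%). With the length offset, 43 members were higher (32% of all genes) and 6 lower (29.4%), with a median of 0.15. By complex these were 17 higher and 3 lower in complex I, 3 and 0 in II, 5 and 0 in III, 7 and 2 in IV and 11 and 1 in ATP synthase. Against feeders removed, the offset left 37 higher (26.9%) and 2 lower (25.9%), with a median of 0.12.

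Single members show the size of the step. Ndufs1 was at 196, 202 and 196 CPM with ATN161, at 154, 160 and 163 CPM with feeders removed and at 117, 120 and 129 CPM in the co-culture on control feeders. None of these 3 groups overlapped, and the step from the co-culture to ATN161 was log2 0.7 ± 0.07 (adjusted p = 1.18e-08, edgeR) and remained 0.66 with the length offset. Cox5a was at 348, 352 and 351 CPM with ATN161 against 218, 217 and 220 CPM in the co-culture (log2 0.68, adjusted p = 4.02e-07). Ndufv1, which carries the flavin that accepts electrons from NADH, rose by log2 0.6 (adjusted p = 8.06e-07), and Uqcrb, which binds ubiquinone in complex III, by 0.71 (adjusted p = 4.95e-07). Atp5b was at 2730, 2610 and 2720 CPM against 1840, 1940 and 1920 CPM, and Sdha, the flavoprotein of complex II, at 331, 321 and 321 CPM against 267, 268 and 272 CPM. Both pairs of groups lay apart, with log2 fold changes of 0.5 and 0.27. Against feeders removed the largest rises among members at 10 CPM or more were those of Ndufc1 (0.56), Ndufb8 (0.55), Uqcrc1 (0.55), Ndufa6 (0.54) and Cox4i1 (0.54), the last being a nuclear-encoded subunit that regulates complex IV.

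Removal of the feeders alone went with few called members before the length offset. Against the co-culture on control feeders, 10 of 84 were higher and 6 lower, where 25.5% and 26.5% of all genes were. The median was 0.02 against -0.01 for all genes. With the length offset 20 members were higher (26% of all genes) and 11 lower (29.5%), with a median of 0.02. Ndufs1 (0.38 ± 0.07, adjusted p = 6.93e-05, edgeR), Uqcrb (0.37, adjusted p = 0.00157) and Cox7b, a small structural subunit of complex IV (0.33, adjusted p = 0.00101), rose most among members at 10 CPM or more. Atp5e (-0.84), Cox6b2 (-0.44) and Ndufa8, an accessory subunit at the outer face of complex I (-0.29, adjusted p = 0.0105), fell most. The fibroblast markers fell in the same comparison from 5500 to 5870 CPM to 3270 to 3780 CPM. Counts of called members were small enough to move with the fit, from 3 higher when 1 library was left out to 20 higher when only these groups were fitted.

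**Figure D3:**
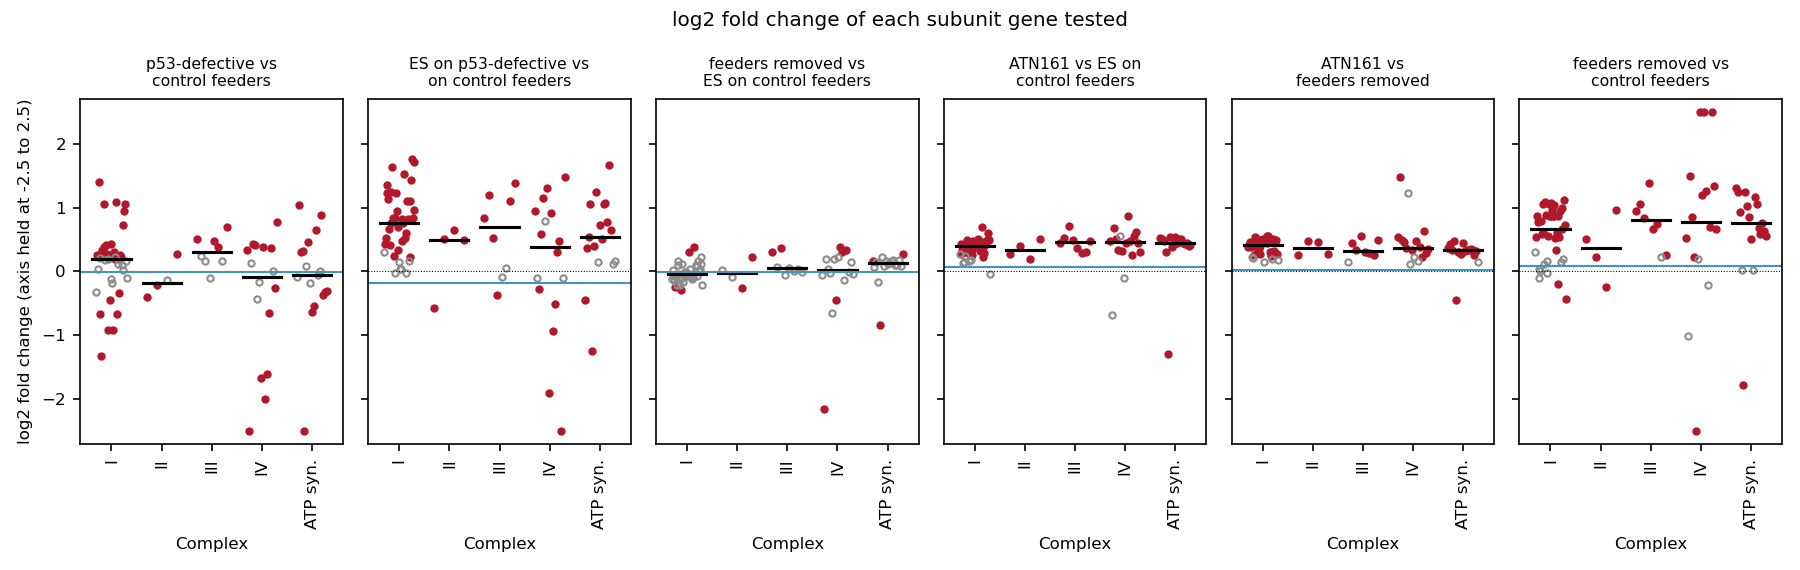
log2 fold change (vertical axis, values beyond ±2.5 drawn at the edge) of each subunit gene tested, by complex, in 6 comparisons; filled points passed an adjusted p of 0.05, open points did not, black lines are the median of a complex and the blue line that of all genes tested. The points are tight around 0.4 for ATN161 and spread on both sides of 0 for feeders labelled p53-defective.

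Feeders labelled p53-defective differed from control feeders in both directions within the set. Of the 84 members, 36 were higher and 21 lower, where 35.9% of all genes were higher and 38.4% lower, and the medians were 0.16 and -0.01. Genes of the same complex moved apart: over complex I, 19 of 39 were higher and 7 lower and the SD of the log2 fold changes was 0.57, and in ATP synthase 6 of 17 were higher and 6 lower. Complex III was the only complex with no lower member, with 4 of 8 higher. With the length offset 32 members were higher (38.8% of all genes) and 29 lower (37.2%), among them 15 and 11 of complex I, 4 and 0 of complex III and 6 and 8 of ATP synthase. The fibroblast, mesothelial and macrophage markers moved with this comparison, the macrophage list from 130 to 177 CPM to 11.1 to 15 CPM, and their part in the differences was not tested.

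Ndufa12, an accessory subunit of the matrix arm of complex I, was at 104, 108 and 96.9 CPM in feeders labelled p53-defective and at 40.1, 39.8 and 37.5 CPM in control feeders, with no overlap and a log2 fold change of 1.4 ± 0.09 (adjusted p = 2.31e-12, edgeR). Ndufb9 (1.09), Ndufa6 (1.06) and Ndufv1 (1.05) of complex I rose by similar amounts, and Atp5b was at 1830, 1840 and 1490 CPM against 863, 816 and 837 CPM (log2 1.04 ± 0.08, adjusted p = 9.46e-11). Its partner Atp5a1 did not pass the test (log2 -0.08, adjusted p = 0.319), at 504, 526 and 504 CPM against 536, 525 and 557 CPM. The alpha and beta subunits are present in equal number in the enzyme. In the other direction, Ndufa3, a small membrane-arm subunit, was at 12.1, 11.8 and 11.9 CPM against 26.5, 29.5 and 34.2 CPM (log2 -1.33, adjusted p = 3.13e-08). Cox7a2, the general isoform of its complex IV subunit, was at 20.7, 16.8 and 20.5 CPM against 55.7, 56.9 and 63 CPM (log2 -1.6, adjusted p = 1.06e-10). Ndufb1 and Ndufb5 fell by 0.92 and 0.91 on the log2 scale, and Sdha fell by 0.4.

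The co-culture labelled p53-defective had higher subunit RNA on the CPM scale than the co-culture on control feeders. Of the 84 members 60 were higher and 9 lower, where 36.6% of all genes were higher and 46.7% lower, and the medians were 0.62 and -0.18. This gap was smaller with transcript length taken out. All genes under 600 nt had a median of 0.65 and 60.1% were higher, against 0.76 and 43 of 58 for members of that length, and with the length offset 38 members were higher (41.8% of all genes) and 28 lower (41.9%), with a median of 0.09. Scaled by the sums behind TPM, which count transcripts and not reads, 29 members were higher and 37 lower. The median there was -0.06 for members and -0.85 for all genes, so the members still lay above all genes. With the length offset all genes had a median of -0.01. The sign of the median for the set thus depended on the scale, and its distance from all genes was smallest with the length offset. The SD of the log2 fold changes over complex I was 0.5, and 0.51 with the length offset.

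On the CPM scale complex I rose in 32 of 39 genes and fell in none, complex II rose in 3 of 4, complex III in 5 of 8, complex IV in 8 of 16 with 5 lower, and ATP synthase in 12 of 17 with 2 lower. The length offset changed these to 20 higher and 10 lower for complex I, 3 and 1 for II, 3 and 4 for III, 5 and 7 for IV and 7 and 6 for ATP synthase. Ndufs8, an iron-sulfur core subunit, was at 158, 172 and 129 CPM against 45.4, 44.2 and 46.1 CPM (log2 1.76 ± 0.1, adjusted p = 2.05e-13, edgeR; 1.21 with the length offset). Ndufv3 was at 148, 173 and 131 CPM against 46.7, 45.7 and 45.2 CPM (1.72, adjusted p = 5.2e-14; 0.99 with the offset). The groups lay far apart in both. Atp5md, a small membrane subunit of ATP synthase, rose by 1.67 (0.92 with the offset), Ndufa7 by 1.63 (0.88) and Ndufb9 by 1.52 (0.87). Cox8a, the general isoform of the smallest complex IV subunit, was at 539, 638 and 469 CPM against 195, 199 and 193 CPM (1.48, adjusted p = 1.88e-13; 0.74 with the offset). Several long core subunits went down instead. Sdha was at 182, 184 and 174 CPM against 267, 268 and 272 CPM (-0.58 ± 0.06, adjusted p = 1.42e-08) and Atp5a1 at 883, 945 and 797 CPM against 1160, 1200 and 1200 CPM (-0.44, adjusted p = 3.62e-06). Uqcrc1 fell by 0.37. Those 3 genes stayed lower with the offset, at -0.41, -0.35 and -0.52. Cox5a fell by 0.28 but lost the call when replicate 3 of the co-culture labelled p53-defective (-0.08) or any library of the other co-culture (-0.18 to -0.17) was left out.

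The effect of the p53-defective label in co-culture was next compared with its effect in feeders alone, as the difference of both log2 fold changes in 1 fit. It differed for 53 members upward and 7 downward, where 38.8% of all genes differed upward and 34.8% downward, with a median of 0.58 for members and 0.04 for all genes. With the length offset the counts were 36 (41.6% of all genes) and 23 (32.9%), with a median of 0.13 for members and 0.14 for all genes. With TPM sums 22 differed upward and 33 downward. The median there was -0.05 for members and -0.58 for all genes, so the members still lay above all genes on that scale. Among members at 10 CPM or more, upward differences were largest for Atp5e (3.96 ± 0.28, adjusted p = 1.43e-11, edgeR), Ndufa3 (2 ± 0.2, adjusted p = 4.35e-09), Ndufa13 (1.88, adjusted p = 6.94e-11), Ndufv3 (1.83, adjusted p = 1.39e-11) and Ndufb1 (1.76, adjusted p = 1.27e-07). Ndufa3 shows the pattern: it was lower in feeders labelled p53-defective, but higher in the co-culture, at 55.4, 67.5 and 43.4 CPM against 34.5, 34.7 and 35.2 CPM (log2 0.67, adjusted p = 5.88e-05). That rise in co-culture turned to -0.08 with the length offset and to -0.01 with TPM sums, neither of which passed, while the difference of effects stayed at 1.4 and 1.35. The largest downward differences were those of Atp5b (-0.68 ± 0.11, adjusted p = 1.3e-05), Uqcrc2 (-0.56, adjusted p = 2.51e-05), Cox5a (-0.41, adjusted p = 0.00474), Atp5a1 (-0.36, adjusted p = 0.0019) and Uqcrfs1, the iron-sulfur protein of complex III (-0.32, adjusted p = 0.0093). Atp5b rose under both, by 2.05-fold in feeders and 1.28-fold in co-culture, the latter turning to a log2 of -0.32 with TPM sums. All genes between the co-cultures had a median of -0.85 with TPM sums.

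A culture of ES cells and feeders could be thought to lie between its parts. In 53 of the 84 members (63.1%), each library of the co-culture labelled p53-defective lay above every library of its own feeders and of ES cells with feeders removed, and in 0 members below both. The same held for 24% of all genes above and 20.2% below. For the co-culture on control feeders, 12 members (14.3%) lay above both parts and 0 below, against 11.6% and 10.3% of all genes. With the length offset 20 of the 84 members of the co-culture labelled p53-defective lay above both parts, near the 24.4% of all genes that did. With TPM sums 26 did, but the share of all genes is not given for that scale, so this number cannot be set against it. Against its own feeders, 82 of 84 members were higher in the co-culture labelled p53-defective and 1 (Cox6a2) lower, where 46.7% and 33% of all genes were, with medians of 1.15 and 0.27. Genes under 600 nt had a median of 1.34 there, close to the 1.33 of members of that length, and with the offset 46 members were higher (45.1% of all genes) and 14 lower (32.8%). The largest of these rises at 10 CPM or more outside the isoforms and Atp5e were those of Ndufa3 (2.21), Ndufa7 (2.07), Cox7a2 (2.04), Ndufa13 (2.03) and Atp5k (1.99). Uqcrc2 was the member that did not pass (0.04, adjusted p = 0.603, edgeR). Sdha, higher by 0.31, turned to -0.45 with TPM sums, where all genes had a median of -0.48.

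Complex IV isoforms marked the ES cultures. Cox7a1, whose promoter is printed above without a match, was at 8.72, 7.37 and 9.91 CPM with feeders removed, 11.5, 11.7 and 12.9 CPM with ATN161 and 6.43, 6.62 and 6.86 CPM in the co-culture on control feeders. It was at 0.339, 0.405 and 0.29 CPM in control feeders and at 0.0635, 0.115 and 0.0613 CPM in those labelled p53-defective, so all ES libraries lay above all feeder libraries. The difference between feeders removed and control feeders was log2 4.62 ± 0.22 (adjusted p = 6.49e-15, edgeR), and ATN161 was higher than the co-culture on control feeders by 0.86 ± 0.13 (adjusted p = 5.73e-06), the largest rise of the members there. Cox7b2 had 0 counts in all 6 feeder libraries and was at 5.32, 4.75 and 4.93 CPM with feeders removed. Against a floor of 3 counts over the 3 control feeder libraries this is at least 87.1-fold higher, and ATN161 (7.18, 8.21 and 7.84 CPM) was at least 135-fold higher. Setting Cox7b2 to this bound left the median of the 84 members against control feeders at 0.7.

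Cox6b2, another isoform known from testis, was at 24.6, 23.1 and 30.2 CPM with feeders removed and at 2.6, 2.66 and 3.65 CPM in control feeders (log2 3.13 ± 0.16, adjusted p = 1.58e-14). It was the member above 10 CPM that fell most between the co-cultures, from 37.1, 34.9 and 33.8 CPM to 8.85, 11.2 and 8.08 CPM (-1.91 ± 0.13, adjusted p = 6.62e-12, edgeR). Cox7b2 fell in the same comparison from 5.84, 4.34 and 4.96 CPM to 0.182, 0.437 and 0.356 CPM (-3.93 ± 0.25, adjusted p = 3.43e-11) and Cox7a1 to 3.15, 4.37 and 2.85 CPM (-0.94, adjusted p = 5.31e-06). These falls went with the fall of the ES cell markers, and the 8 germ cell markers fell with them from 230 to 248 CPM to 37.2 to 38.1 CPM. Their part was not tested. Cox8c, known from testis too, had 8, 8 and 8 counts in the co-culture on control feeders, 13, 6 and 13 with ATN161, 1, 1 and 0 with feeders removed, 0, 1 and 0 in the co-culture labelled p53-defective and 0 in the feeders, too few to test. Cox6a2, the muscle isoform beside Cox6a1, was the reverse case at 0.849, 0.809 and 0.637 CPM in control feeders against 0.0549, 0 and 0 CPM with feeders removed, and Cox4i2 stayed at 1.43 CPM or less in all libraries.

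The general isoform stayed the main one of each pair. Per TPM, Cox7a2 exceeded Cox7a1 by a ratio of 2.81 ± 0.287 (SD, n = 3) with feeders removed and 2.39 ± 0.142 with ATN161, Cox6b1 exceeded Cox6b2 by 5.99 ± 0.703 and 5.04 ± 0.368, and Cox7b exceeded Cox7b2 by 8.02 ± 0.554 and 6.15 ± 0.301. These ratios rest on the effective lengths, which were 454 nt for Cox7a2 but 81 nt for Cox7a1. The ratios of ATN161 and feeders removed overlapped for the Cox7a and Cox6b pairs and lay apart for the Cox7b pair. The rises of Cox6b2 (0.34, adjusted p = 0.0183, edgeR), Cox7b2 (0.63, adjusted p = 0.0012) and Cox7a1 (0.47, adjusted p = 0.00316) from feeders removed to ATN161 did not pass when only curated transcripts were counted. All deposited transcripts of Cox6b2 and Cox7b2 are curated, so their own counts were the same in that setting.

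**Figure D4:**
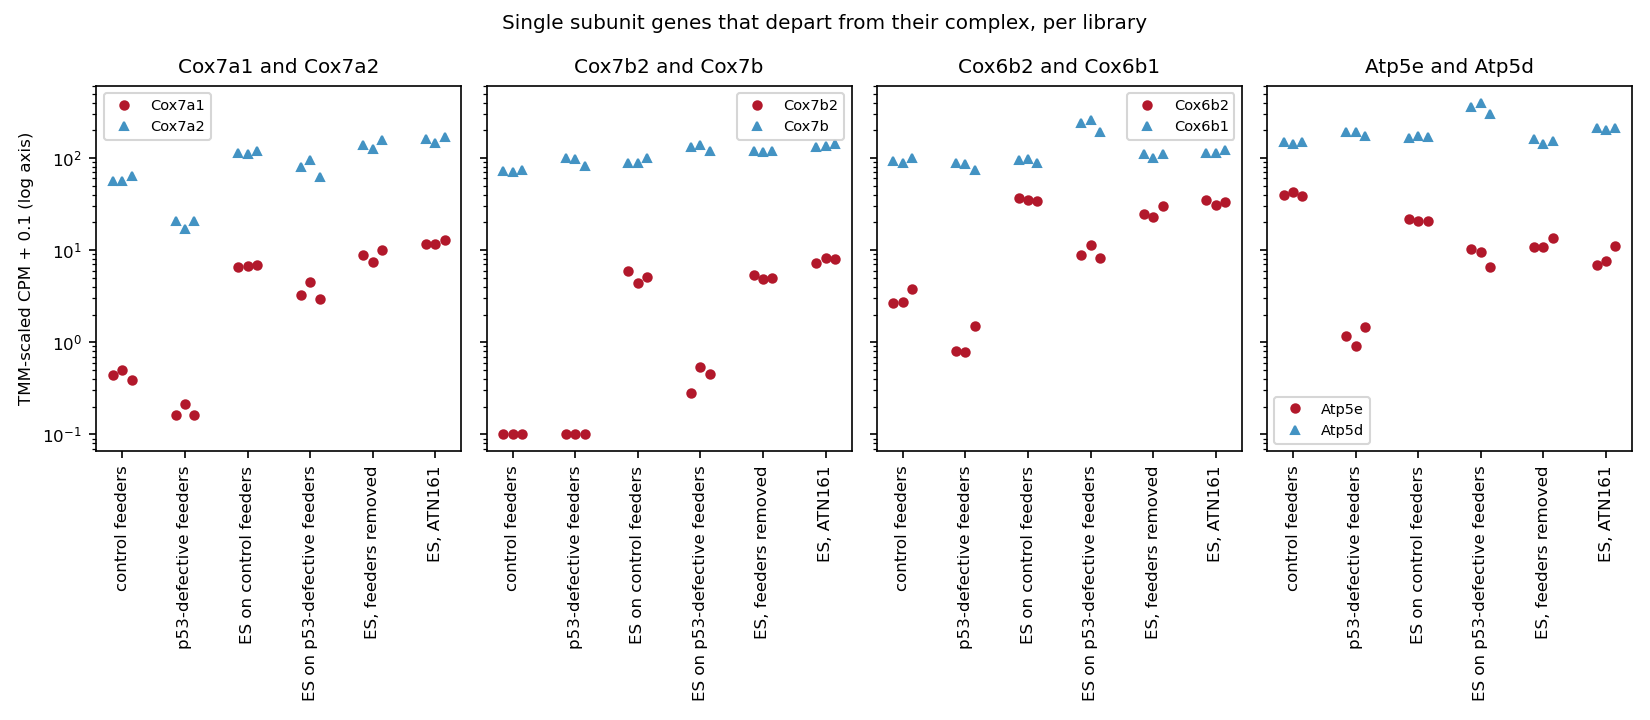
TMM-scaled CPM plus 0.1 on a log axis in each of the 18 libraries for 3 complex IV isoforms with their general counterparts and for Atp5e with Atp5d, another stalk subunit of ATP synthase. Cox7b2 is at 0 CPM (drawn at 0.1) in both feeder groups, and Atp5e falls from 38.3 to 42.2 CPM in control feeders to 0.808 to 1.35 CPM in feeders labelled p53-defective, while Atp5d does not fall with it.

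Atp5e departed from the rest of ATP synthase. The gene lies at chr2:174461075-174464101 on the minus strand (GRCm38.p6) and had 1 curated transcript in the table. It had 705, 730 and 661 counts in control feeders (39.9, 42.2 and 38.3 CPM) and 17, 14 and 22 counts in feeders labelled p53-defective (1.08, 0.808 and 1.35 CPM), a log2 fold change of -5.21 ± 0.21 (adjusted p = 5.39e-16, edgeR). This was the largest change of any member between the feeders, and the other subunits of the central stalk, Atp5c1 (0.31) and Atp5d (0.32), were higher. Those of the peripheral stalk were lower, at -0.63 (Atp5h), -0.54 (Atp5j), -0.32 (Atp5o) and -0.31 (Atp5pb). Among the ES groups Atp5e was at 21.5, 20.6 and 20.6 CPM in the co-culture on control feeders, 10.3, 9.42 and 6.54 CPM in the co-culture labelled p53-defective, 10.8, 10.6 and 13.6 CPM with feeders removed and 6.87, 7.6 and 11.1 CPM with ATN161. The co-culture on control feeders lay below control feeders and above the other 3 ES groups, of which ATN161 overlapped with both others. Atp5e was the 1 member lower with ATN161 than in the co-culture (-1.29 ± 0.15, adjusted p = 1.81e-07), and it was lower with feeders removed than in control feeders (-1.78 ± 0.14, adjusted p = 8.15e-11). The step from feeders removed to ATN161 (-0.45, adjusted p = 0.0193) was lost without replicate 3 of the former (-0.36) or replicate 1 (-0.32) or 2 (-0.38) of the latter. Against its own feeders, the co-culture labelled p53-defective was higher by 3.02 ± 0.24. Each of these directions held with the length offset.

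Genes around the complexes were read from lists. Assembly factors, which build the complexes but are no subunits, rose in 26 of 47 tested and fell in 2 with ATN161 against the co-culture on control feeders, with a median of 0.29, where 33.6% of all genes were higher and 28% lower. The length offset left 14 of 47 higher and 5 lower, where 32% of all genes were higher and 29.4% lower. The share of higher assembly factors was then near that of all genes, and the share of lower ones was below it. The 18 genes of the TCA cycle, which feeds electrons into complexes I and II, rose in 17 and fell in 0 there, with a median of 0.45, and in 18 and 0 with the offset. Between feeders removed and ATN161 (28.6% of all genes higher, 26.8% lower) the assembly factors gave 26 higher and 1 lower and the TCA cycle 16 and 0. With the offset (26.9% of all genes higher, 25.9% lower) the assembly factors gave 13 and 4. Their share of higher genes was again near that of all genes, and their share of lower ones again below it. The TCA cycle gave 10 and 1 there. Electron carriers outside the symbol rule included Cyc1, which is itself a subunit of complex III. Cyc1 rose by 0.52 ± 0.09 with ATN161 (adjusted p = 3.48e-05, edgeR) and by 1.64 ± 0.1 in feeders labelled p53-defective (adjusted p = 4.29e-13), more than any of the 84 members in that comparison. Cycs, cytochrome c, rose by 0.61 with ATN161 (adjusted p = 0.00254).

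Regulators of mitochondrial biogenesis were mostly lower in the co-culture labelled p53-defective and mostly higher in several other comparisons. Of 15 tested, 3 were higher and 9 lower in the co-culture labelled p53-defective against the co-culture on control feeders (median -0.39), where 36.6% of all genes were higher and 46.7% lower. In feeders labelled p53-defective against control feeders 10 were higher and 1 lower (median 0.38, where 35.9% and 38.4% of all genes were). With ATN161 against the co-culture on control feeders 9 were higher and 3 lower (median 0.23), where 33.6% and 28% of all genes were. With feeders removed against control feeders 11 were higher and 3 lower (median 0.56), where 45.1% and 40.8% were. The length offset gave 4 and 8, 11 and 1, 10 and 3, and 11 and 3 in the same order. Of all genes, 41.8% and 41.9%, 38.8% and 37.2%, 32% and 29.4%, and 42.3% and 44.8% were higher and lower there. Against its own feeders, the co-culture labelled p53-defective had 3 higher and 10 lower (median -0.69), where 46.7% and 33% of all genes were. The offset gave 3 and 9 (45.1% and 32.8%). Esrrb, also an ES cell marker, was at 446 to 494 CPM in the co-culture on control feeders and 20.6 to 26.3 CPM in the other. The part of the lower ES cell markers was not tested. Tfam, which packages and transcribes mitochondrial DNA, was at 39.6 to 44.2 CPM in control feeders and 107 to 112 CPM in those labelled p53-defective (1.38 ± 0.07, adjusted p = 1.6e-14, edgeR). It was 68.6 to 71.4 CPM in the co-culture on control feeders and 104 to 109 CPM with ATN161 (0.61, adjusted p = 4.21e-08). Nrf1, the factor that binds the core printed in the Atp5g2 promoter, rose by 0.44 with ATN161 (adjusted p = 1.04e-05, edgeR). Between the co-cultures Nrf1 fell by 0.54 in the one labelled p53-defective (adjusted p = 2.94e-07), while Ppargc1b, a coactivator, fell there by 2.18 (adjusted p = 6.04e-11).

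Glycolytic genes were lower in both ES groups without feeders than in the co-culture on control feeders. With feeders removed, 15 of 19 were lower and 0 higher (median -0.66), where 26.5% of all genes were lower and 25.5% higher and 10 subunit genes were higher and 6 lower. With ATN161 12 were lower and 2 higher (median -0.42), where 28% of all genes were lower and 33.6% higher and 73 subunit genes were higher and 1 lower. Between these 2 ES groups, 9 glycolytic genes were higher with ATN161 and 0 lower (median 0.22), the same direction as the subunits. Of all genes 28.6% were higher and 26.8% lower there. With the length offset 7 were higher (26.9% of all genes) and 3 lower (25.9%). Ldha, which makes lactate, fell by 0.98 with feeders removed (adjusted p = 1.07e-08, edgeR) and by 0.97 with ATN161 (adjusted p = 3.58e-09), comparisons that share the co-culture libraries. Of 15 hypoxia-response genes outside glycolysis, 14 were lower and 1 higher with feeders removed (median -1.48) and 12 lower and 1 higher with ATN161 (median -1.29). Among them was Ndufa4l2, a relative of the subunit Ndufa4 that is known to respond to low oxygen. It was at 20.5 to 22.3 CPM in the co-culture on control feeders, 2.14 to 2.96 CPM with feeders removed and 1.52 to 2.78 CPM with ATN161 (-3.01 and -3.28, adjusted p = 3.53e-08 and 4.89e-09). Against the co-culture on control feeders, the co-culture labelled p53-defective had 16 glycolytic genes higher and 3 lower (median 1.28). Of all genes 36.6% were higher and 46.7% lower there. The length offset gave 16 and 3 as well (median 1.45), where 41.8% and 41.9% of all genes were. Ldha rose by 2.11 in this comparison (adjusted p = 1.39e-15, edgeR). Oxygen levels and metabolic rates were not measured.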

How the data were processed

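The 18 libraries were poly(A) RNA-seq of mouse cultures (Trizol RNA, TruSeq mRNA kit, per the labels' protocols), and strandedness is not given in the sources used here. Tools listed in the submitters' processing notes, without roles, are StringTie 1.3.3b, HISAT2 2.1.0, DESeq2 1.2.10 and SAMtools 1.4, with the builds mm10 and GRCm38. The authors deposited expected counts, TPM and FPKM for 75416 RefSeq transcripts, of which 32625 were curated and 42791 predicted. Per gene, expected counts were added up and then rounded (within 0.05, 89.3% of nonzero sums were already whole), and TPM and FPKM as deposited were summed per gene. The deposited normalised counts (18 columns) and group means were not used.

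Of 19630 genes, 15389 passed filterByExpr. They entered 1 edgeR fit of all libraries (version 4.0.16, R 4.3.3) with TMM scaling, robust dispersion and a coefficient for each group, and were tested by two-sided quasi-likelihood F-tests. The threshold was 0.05 on p adjusted by Benjamini-Hochberg across the genes tested. The common biological coefficient of variation was 0.0792. In simulated data for the feeder comparison, the fit recovered 88% of 200 genes changed 2-fold among 14875 genes. A length offset removed the running median of each library's log ratio over 40 bins of effective length. Named members are the 5 largest rises and falls called at 10 CPM or more in a group, the core subunits and the isoform pairs, and the other names were chosen after their values were seen. The members, lists and tests were chosen with earlier results of these data known. Alternatives were DESeq2 1.42.0 (size factors or Wald test), library totals, no filter, only the groups compared, a replicate block, curated transcripts, FPKM and each library left out. The length offset and TPM sums were added after seeing the data. Each SE comes from the quasi-likelihood fit and includes the spread between libraries, and each SD with n = 3 is over the libraries of a group. Floors (3 counts over a group) cover counting error only. Members whose annotation overlaps another gene, among them Atp5md, Cox4i2, Cox6a2, Cox7a2, Uqcrq, Uqcrc2 and Atp5a1, may share reads with it, since strand is not known. Ndufa4 was kept with complex I by its symbol, although it is now known as a complex IV subunit.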

Additional observations from a re-analysis of the deposited data

Results flagged for a closer look

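The effect of the p53-defective label on the co-culture differed from its effect on feeders alone for 53 members upward and 7 downward, by the test of that difference in 1 edgeR fit (Benjamini-Hochberg adjusted p below 0.05), where 38.8% of all genes differed upward and 34.8% downward. With TPM sums the counts turned to 22 upward and 33 downward, where the median of all genes moved from 0.04 to -0.58. The 5 farthest each way at 10 CPM or more in a group are given. On the log2 scale the difference was 3.96 for Atp5e, 2 for Ndufa3, 1.88 for Ndufa13, 1.83 for Ndufv3 and 1.76 for Ndufb1. It was -0.68 for Atp5b, -0.56 for Uqcrc2, -0.41 for Cox5a, -0.36 for Atp5a1 and -0.32 for Uqcrfs1. Effective transcript lengths ran from 60 nt (Ndufb1) to 371 nt (Ndufa13) for the first 5 and from 394 nt (Cox5a) to 2132 nt (Atp5a1) for the others. The ES cell and fibroblast markers given above differed between the same groups, and their part was not tested. With the length offset the difference was 3.38 for Atp5e, 1.4 for Ndufa3 and -0.79 for Atp5b.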

How the results depend on the processing

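With the length trend taken out, counts of higher and lower members were 38 and 28 between the co-cultures, 20 and 11 for feeders removed against the co-culture, 43 and 6 for ATN161 against the co-culture, 37 and 2 for ATN161 against feeders removed, 46 and 14 for the co-culture labelled p53-defective against its feeders, and 24 were lower for feeders removed against control feeders and 23 for the difference of label effects. The medians became 0.05 (feeders), 0.09 (co-cultures), 0.15 and 0.12 (ATN161), 0.18 (feeders removed against control feeders), 0.15 (co-culture against its feeders) and 0.13 (difference), and the SD over complex I was 0.48 for feeders removed against control feeders. TPM sums gave 29 and 37 between the co-cultures (median -0.06), 12 lower for feeders removed against the co-culture, 37 and 4 for ATN161 (0.18), 38 higher for ATN161 against feeders removed (0.16), 9 lower for feeders removed against control feeders (0.51), 7 lower for the co-culture against its feeders (0.38) and 22 and 33 for the difference (-0.05), and Sdha turned to -0.45 there. Between the co-cultures, Ndufa3 turned to -0.08 with the length offset and -0.01 with TPM sums, and Atp5b to -0.32 with TPM sums. Members above both parts were 26 with TPM sums, without a share of all genes to set beside it, and 20 with the length offset (24.4% of all genes). The median of all genes between the co-cultures moved from -0.18 to -0.52 with library totals and to -0.85 with TPM sums. For the difference of label effects it moved from 0.04 to -0.37 and to -0.58.

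Library totals alone gave medians of 0.24 (feeders), 0.28 (co-cultures, 19 lower), 0.31 (ATN161 against the co-culture), 0.87 (co-culture against its feeders, 2 lower) and 0.17 (difference, 35 higher and 16 lower), and 6 higher and 12 lower for feeders removed against the co-culture. In that comparison, fitting only its groups gave 20 and 12, curated transcripts 5 higher and no filter 10 lower. For ATN161 against the co-culture, the median was 0.35 without a filter, 0.34 with only those groups (4 lower) and 0.33 with curated transcripts. Only the groups compared gave 0 lower for the co-culture against its feeders (1, Cox6a2, as reported) and the DESeq2 Wald test gave 11 lower for the difference. The cause of the shifts in this section was not tested.

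Leaving out 1 library gave 3 to 8 higher and 6 to 13 lower for feeders removed against the co-culture, 1 to 2 lower and medians of 0.34 to 0.45 for ATN161 against the co-culture, 0 to 1 lower for ATN161 against feeders removed, 3 to 5 lower, medians of 0.71 to 0.81 and SDs of 0.4 to 0.44 for feeders removed against control feeders, and 4 to 11 lower for the difference. The replicate numbers name samples only: correlations of same-numbered deviations were -0.07 to 0.223. With a replicate block the counts were 35 and 21 for the feeders, 60 and 9 for the co-cultures, and 71 and 1 for ATN161 against the co-culture, and no named member changed its call. Depth limits Cox8c, Cox8b, Ndufb4b and Ndufs6b, with 59, 2, 15 and 18 counts over all libraries, too few to pass the filter.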
